A study of Homo sapiens with 6 samples.

Results

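The genes described here are 10 genes of cellular iron handling, listed by what their products do: iron uptake (TFRC, STEAP3, SLC11A2), storage and ferritin turnover (FTL, FTH1, NCOA4), export (SLC40A1) and sensing (ACO1, IREB2, FBXL5). They are 10 of the 50550 rows of the gene table, and all 10 passed the filter on low counts that left 21933 rows for testing. RNA was sequenced from 6 libraries of U2OS, an established human osteosarcoma cell line, 3 titled Lv_LINC00673 and 3 titled Lv_NC. The series names depletion of the long noncoding RNA LINC00673 as its subject, its design text speaks of wild-type cells and knockdown derivatives, and the labels do not spell out Lv or NC. No clone, dose, time or culture is named for either group, so a p-value here rests on how 3 libraries of a title differ among themselves, which may be technical variation alone. The genes were chosen by function, but with fold changes of this same comparison already known, that of FTL among them. The calls below therefore describe the fit and support nothing further.

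A cell takes up iron bound to transferrin through the transferrin receptor, frees and reduces it in the endosome, and moves it to the cytosol. Iron that is not used is stored in ferritin, a shell of heavy and light chains, and can leave the cell through ferroportin. A pair of iron regulatory proteins, encoded by ACO1 and IREB2, bind hairpins called iron-responsive elements when iron is scarce. At the start of ferritin and ferroportin messages this binding blocks translation, and at the end of the transferrin receptor message it protects the RNA from decay. FBXL5 is the part of a ubiquitin ligase that marks the IREB2 protein for destruction when iron is plentiful. Ferritin control at the hairpin acts on translation, which RNA counts do not measure.

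The hairpins are shown first because they tie TFRC, FTL, FTH1 and SLC40A1 to the sensing genes. The search took a bulged C, a stem of 5 bases, the loop CAGTGN and 5 bases that pair with the stem (transcript strand, G-T pairs allowed) in GENCODE 29 transcripts on GRCh38. Among the 10 genes, TFRC had 4 such sites, FTL, FTH1 and SLC40A1 had 1 each, and the others had none with full pairing, which says nothing of other forms of the element. Of 19669 genes, 1.32% held the paired motif in their longest coding transcript, and 66.9% held a C, any 5 bases and the loop without regard to pairing. Each window below is 29 bases, 5′ to 3′, with the loop in capitals. The TFRC sites lie in the 3′ UTR on the minus strand at chr3:196050979-196051007, chr3:196050575-196050603, chr3:196050510-196050538 and chr3:196050463-196050491. The other windows lie in the 5′ UTR, that of FTL at chr19:48965335-48965363 on the plus strand, that of FTH1 at chr11:61967574-61967602 and that of SLC40A1 at chr2:189580661-189580689, both on the minus strand.
TFRC site 1: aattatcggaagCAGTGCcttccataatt
TFRC site 2: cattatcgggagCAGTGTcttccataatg
TFRC site 3: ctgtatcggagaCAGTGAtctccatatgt
TFRC site 4: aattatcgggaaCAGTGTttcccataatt
FTL: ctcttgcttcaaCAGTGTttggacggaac
FTH1: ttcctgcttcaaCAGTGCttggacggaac
SLC40A1: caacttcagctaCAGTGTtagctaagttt
The FTL and FTH1 windows share 26 of 29 bases. The SLC40A1 site is in 1 of that gene's 5 coding transcripts, whereas the FTH1 site is in 7 of 8 and the TFRC sites are in 3 of 4.

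In the libraries titled Lv_LINC00673 both ferritin genes and FBXL5 were lower, and TFRC, SLC40A1 and IREB2 were higher, than in Lv_NC. STEAP3, SLC11A2, NCOA4 and ACO1 did not pass the threshold. By edgeR's quasi-likelihood test at an adjusted p of 0.05 over all tested rows, 3 of the 10 genes were called higher and 3 lower. Of all tested rows 26.8% were called, 14.3% higher and 12.5% lower. The 3 libraries of one group did not overlap the 3 of the other at 7 of the 10 genes, against 45.1% of tested rows. Levels between groups are TMM-normalized CPM, the reads of a gene scaled to the size of its library, and fold changes are of Lv_LINC00673 relative to Lv_NC. CPM is a share of a library's reads, so fewer cells with a message and less of it per cell cannot be told apart.

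Facts of all libraries bear on these values. Total counts were 61815841 to 71237493 per library in Lv_LINC00673 and 76814723 to 87227980 in Lv_NC. The TMM scaling factors were 1.03 to 1.08 in Lv_LINC00673 and 0.929 to 0.954 in Lv_NC. Neither overlapped, so depth and scaling differed along with the titles, and an effect of depth was not tested. LINC00673 stood at 6.23 to 6.55 CPM in Lv_LINC00673 and 7.08 to 9.27 CPM in Lv_NC (log2 fold change -0.41, edgeR adjusted p = 0.0924), a difference that did not pass. The groups are therefore named by their titles. Of 9 osteoblast and osteosarcoma markers, SPARC and COL1A1 were abundant (124 to 149 and 30.1 to 44.7 FPKM), whereas SP7, COL1A2, BGLAP and IBSP stayed under 1 FPKM in every library. Of 8 erythroid markers, all stayed under 1 FPKM and 3 of them, HBB and HBG1 included, had 0 counts. The summed level of the 5 hepatocyte markers was 24.4 to 27.2 FPKM in Lv_NC and 23.0 to 29.6 in Lv_LINC00673, nearly all of it SERPINA1, with albumin at no more than 0.0525 FPKM. That of the 6 macrophage markers was 50.7 to 67.3 and 54.6 to 63.9 FPKM, carried by CD68 and MARCO, while PTPRC reached at most 0.0460 FPKM and VSIG4 had 0 counts.

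Fold changes in this comparison also moved with the GC content and length of genes. Over 10877 genes their rank correlation (Spearman) was -0.51 with GC content and 0.45 with length of the longest transcript, taken over genes, which do not replicate one another. A second fit removed both trends library by library on 16180 rows, and its values are called offset values here. In it 33.0% of rows were called, and of the 10 iron genes 2 were higher and 4 lower, against 16.6 and 16.4% of rows. The 10 genes differ widely in these properties, from 38.3% GC in IREB2 to 56.9% in STEAP3 and from 878 bases in FTL to 7466 in ACO1. Both values are given for each gene because the offset reduced the ferritin, TFRC, IREB2, NCOA4 and SLC40A1 differences, enlarged that of FBXL5 and gave SLC11A2 a call.

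**Figure D1:**
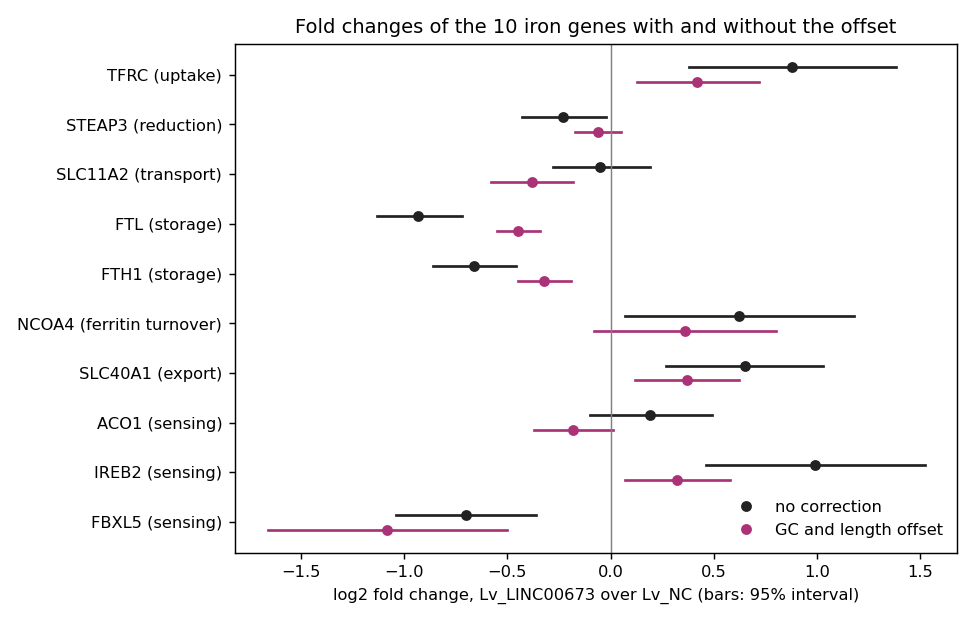
Log2 fold change of each of the 10 iron genes with its 95% interval (x axis), without correction in black and with the GC and length offset in purple. FTL and FTH1 lie below 0 and TFRC and SLC40A1 above 0 in both fits, and the FBXL5 value is farther from 0 with the offset.

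The ferritin genes were the most abundant of the list and were lower in every Lv_LINC00673 library. FTL, the light chain (chromosome 19, 48965309 to 48966879), stood at 2095, 2436 and 2361 CPM in Lv_NC libraries 1 to 3 and at 1301, 1129 and 1193 CPM in Lv_LINC00673 libraries 1 to 3. All 3 values of Lv_LINC00673 lay far below the lowest of Lv_NC. The level was 1.90-fold lower (log2 fold change -0.93, SE 0.09, 95% interval -1.13 to -0.72, edgeR adjusted p = 0.00211). The offset value was -0.45 (SE 0.05, adjusted p = 4.30e-04).

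FTH1, the heavy chain that oxidizes iron as it enters the shell (chromosome 11, 61964285 to 61967634), stood at 1450, 1638 and 1582 CPM in Lv_NC and 1067, 925 and 963 CPM in Lv_LINC00673. The groups again did not overlap. It was 1.58-fold lower (log2 fold change -0.66, SE 0.09, 95% interval -0.86 to -0.46, edgeR adjusted p = 0.00399), and the offset value was -0.32 (SE 0.06, adjusted p = 0.00346). Of the 6 called genes, only FTL and FTH1 kept their call in every alternative fit of the whole table, 19 for each. Both are short transcripts, in the shortest decile of genes, whose median log2 fold change was -0.34. Ferritin genes have many processed pseudogenes, and the rule for counting shared reads was not stated. The table held FTH1P3 with 38 to 80 counts per library and FTLP10 with 0, few beside the parent genes. Adding such rows to the parents left log2 fold changes of -0.93 for FTL and -0.66 for FTH1. Shared reads that were discarded would not show in these rows, so their effect is unknown.

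Without correction for GC content and length, the light chain was lower by more than the heavy chain. FTL made up 66.6, 67.3 and 67.3% of the summed FPKM of both chains in Lv_NC and 62.8, 62.8 and 63.1% in Lv_LINC00673. The shares were 67.1 ± 0.395% and 62.9 ± 0.195% (SD, n = 3) and did not overlap, and they are a description with no test. Of raw counts the shares were 59.6 ± 0.431% and 55.1 ± 0.206%. Neither kind of share holds a correction for GC content or length. The offset values were -0.45 for FTL (interval -0.55 to -0.34) and -0.32 for FTH1 (interval -0.45 to -0.19), with overlapping intervals. A difference between the chains was not tested in either fit. Both chains together took 0.338 to 0.378% of all counts in Lv_NC and 0.222 to 0.243% in Lv_LINC00673.

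NCOA4 encodes the receptor that carries ferritin to the lysosome, where its iron is released (chromosome 10, 46005088 to 46030623). Its levels were 56.7, 40.3 and 53.7 CPM in Lv_NC and 49.0, 98.8 and 84.6 CPM in Lv_LINC00673. Lv_LINC00673 library 1 lay inside the Lv_NC range and the others above it, so the groups overlapped. The log2 fold change of 0.62 (SE 0.24, 95% interval 0.07 to 1.18) did not pass the threshold (edgeR adjusted p = 0.0904). It passed in DESeq2 on all 6 libraries (0.60, adjusted p = 0.0341) and in edgeR without Lv_LINC00673 library 1 (0.86, adjusted p = 0.00861), and the offset value was 0.36 (adjusted p = 0.183).

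**Figure D2:**
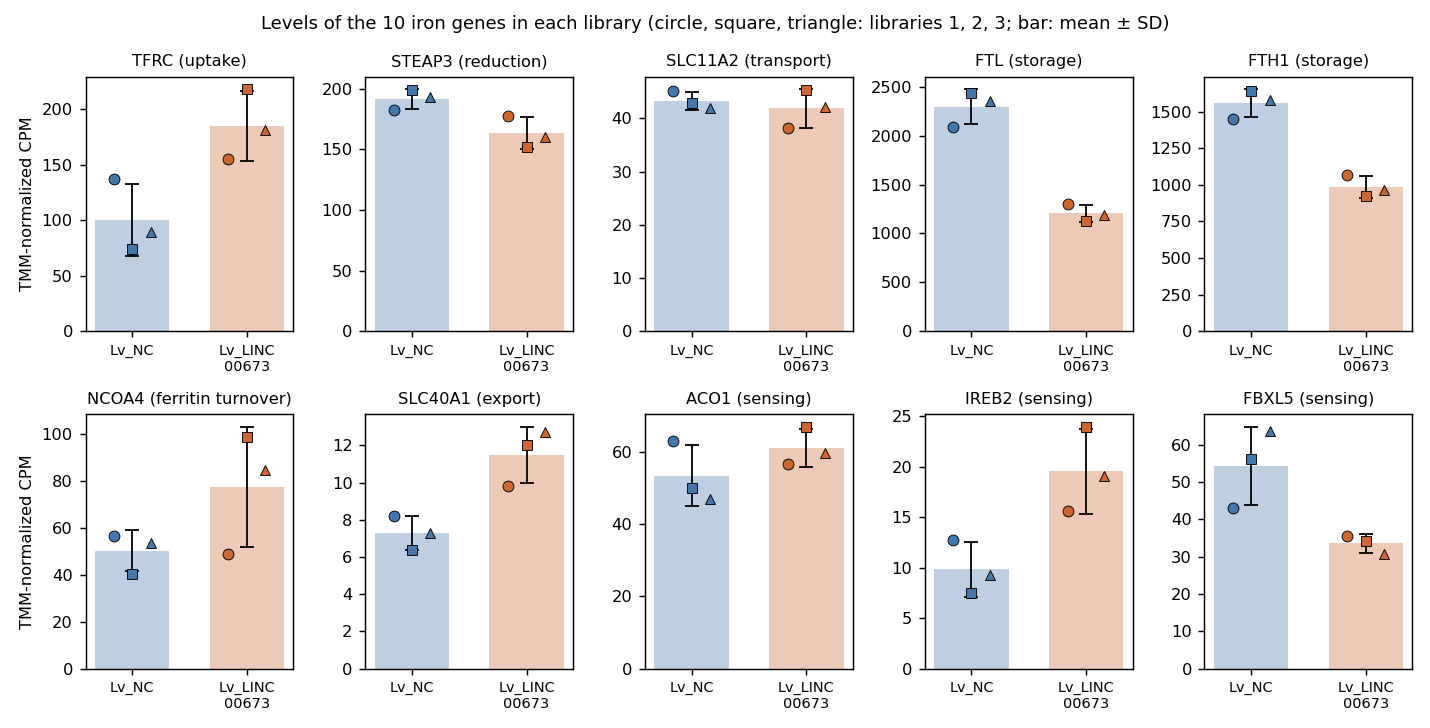
TMM-normalized CPM of each gene (y axis, from 0) in Lv_NC (blue) and Lv_LINC00673 (orange), with circle, square and triangle for libraries 1, 2 and 3, bars for the mean and error bars for the SD. FTL and FTH1 show well separated groups with little spread, whereas NCOA4, SLC11A2 and ACO1 overlap.

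Among the uptake genes the receptor was higher and the endosomal reductase and transporter showed no call. TFRC, the transferrin receptor (chromosome 3, 196049284 to 196082090), stood at 137, 74.5 and 89.2 CPM in Lv_NC and 155, 218 and 181 CPM in Lv_LINC00673. The groups did not overlap, but Lv_NC library 1 came close to Lv_LINC00673 library 1. The level was 1.84-fold higher (log2 fold change 0.88, SE 0.22, 95% interval 0.38 to 1.38, edgeR adjusted p = 0.0212), and the offset value was 0.42 (SE 0.13, adjusted p = 0.0355). The call was lost without Lv_LINC00673 library 2 or 3 or Lv_NC library 2 or 3 (log2 fold changes 0.73, 0.89, 0.70 and 0.80, adjusted p = 0.0795, 0.0623, 0.0507 and 0.0841).

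STEAP3 reduces the iron that transferrin brings into endosomes (chromosome 2, 119223834 to 119265652). Its levels were 183, 199 and 193 CPM in Lv_NC and 178, 152 and 160 CPM in Lv_LINC00673. Each Lv_LINC00673 library lay below each Lv_NC library, by little in library 1. The log2 fold change was -0.23 (SE 0.09, 95% interval -0.43 to -0.02, edgeR adjusted p = 0.0916), and it passed only without Lv_LINC00673 library 1 (-0.31, adjusted p = 0.0290) among the alternatives run. The offset value was -0.06 (adjusted p = 0.376).

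SLC11A2 carries divalent iron across the endosomal membrane (chromosome 12, 50952263 to 51028886). It stood at 45.1, 42.8 and 41.9 CPM in Lv_NC and 38.1, 45.3 and 42.2 CPM in Lv_LINC00673, and the groups overlapped fully. Its log2 fold change of -0.05 (SE 0.10, 95% interval -0.28 to 0.19, edgeR adjusted p = 0.768) became -0.38 in the offset values (SE 0.09, adjusted p = 0.0107). The sign also depended on scaling, at 0.12 with library totals alone and 0.06 on deposited FPKM. Genes of its GC decile had a median log2 fold change of 0.28 without the offset.

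The summed CPM of both ferritin chains over the CPM of TFRC joins storage and uptake in 1 value per library. It was 25.8, 54.7 and 44.2 in Lv_NC and 15.3, 9.43 and 11.9 in Lv_LINC00673. The lowest Lv_NC value, in library 1, was above all Lv_LINC00673 values. The means were 41.6 ± 14.6 and 12.2 ± 2.96 (SD, n = 3), a ratio of 3.41 between groups. This ratio follows from the TFRC and ferritin values above and is given with no test. It holds no correction for GC content or length. With the offset the differences that make it up were smaller, at -0.45 for FTL, -0.32 for FTH1 and 0.42 for TFRC.

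SLC40A1, ferroportin, is the iron exporter of the list (chromosome 2, 189560590 to 189580786). It stood at 8.21, 6.39 and 7.31 CPM in Lv_NC and 9.80, 12.0 and 12.7 CPM in Lv_LINC00673, without overlap. The level was 1.57-fold higher (log2 fold change 0.65, SE 0.17, 95% interval 0.27 to 1.03, edgeR adjusted p = 0.0230), with an offset value of 0.37 (SE 0.11, adjusted p = 0.0317). The call was lost without Lv_LINC00673 library 2 or 3 or Lv_NC library 2 or 3 (adjusted p = 0.0773, 0.0957, 0.0716 and 0.0769).

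The sensing genes went in different directions. IREB2, iron regulatory protein 2 (chromosome 15, 78437431 to 78501453), stood at 12.8, 7.47 and 9.27 CPM in Lv_NC and 15.6, 24.0 and 19.1 CPM in Lv_LINC00673. The groups did not overlap, and Lv_NC library 1 was again the closest to the other group. It was 1.99-fold higher (log2 fold change 0.99, SE 0.23, 95% interval 0.46 to 1.52, edgeR adjusted p = 0.0167). The offset value was 0.32 (SE 0.11, adjusted p = 0.0527), which did not pass. IREB2 lies in the decile of lowest GC content, whose median log2 fold change was 0.56, and its call was also lost without Lv_LINC00673 library 2 or 3 or Lv_NC library 3 (adjusted p = 0.0639, 0.0540 and 0.0682).

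ACO1 encodes iron regulatory protein 1, which acts as a cytosolic aconitase when it holds an iron-sulphur cluster (chromosome 9, 32384643 to 32454769). It stood at 62.9, 50.0 and 47.0 CPM in Lv_NC and 56.5, 66.9 and 59.6 CPM in Lv_LINC00673, and the groups overlapped. The log2 fold change was 0.19 (SE 0.13, 95% interval -0.10 to 0.49, edgeR adjusted p = 0.304) and turned to -0.18 in the offset values (adjusted p = 0.133), passing in neither. Per length, the ratio of IREB2 to ACO1 was 0.246, 0.190 and 0.248 in Lv_NC and 0.327, 0.430 and 0.394 in Lv_LINC00673 on deposited FPKM. The ratios did not overlap, and IREB2 was the less abundant message in all 6 libraries. This ratio is a description with no test and holds no correction for GC content or length. With the offset, IREB2 was at 0.32 and ACO1 at -0.18, and neither passed.

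FBXL5, the iron-binding ligase subunit that targets IREB2 protein (chromosome 4, 15604381 to 15681569), stood at 43.0, 56.2 and 63.8 CPM in Lv_NC and 35.6, 34.2 and 30.8 CPM in Lv_LINC00673. The Lv_LINC00673 libraries were close together and all below the widely spread Lv_NC libraries. It was 1.62-fold lower (log2 fold change -0.70, SE 0.15, 95% interval -1.04 to -0.36, edgeR adjusted p = 0.0124). Genes of its GC decile had a median log2 fold change of 0.49, the opposite direction, and the offset value was -1.08 (SE 0.24, adjusted p = 0.0168). With the offset, libraries 1 to 3 were at 0.02, 0.83 and 0.74 in Lv_NC and at -0.24, -0.64 and -0.70 in Lv_LINC00673 (log2, mean-centred). The call was lost without Lv_LINC00673 library 3 or Lv_NC library 3 (adjusted p = 0.0568 and 0.0521) and on log2(FPKM + 1) (-0.45, limma adjusted p = 0.0560). It was also lost in edgeR with library number as a block, without the offset (-0.68, adjusted p = 0.0646) and with it (-1.06, adjusted p = 0.0601).

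TFRC and IREB2 followed each other across libraries, and both followed the genes of low GC content. In log2 CPM minus the mean of the 6 libraries, TFRC was at 0.04, -0.84 and -0.58 in Lv_NC libraries 1 to 3 and at 0.22, 0.71 and 0.45 in Lv_LINC00673 libraries 1 to 3. IREB2 was at -0.09, -0.86 and -0.55 and at 0.20, 0.82 and 0.49 in the same order. The median gene of the lowest GC decile was at -0.04, -0.59 and -0.22 in Lv_NC and at 0.00, 0.49 and 0.38 in Lv_LINC00673. Lv_NC library 1 and Lv_LINC00673 library 1 thus lay between the others for TFRC, IREB2 and the low-GC genes alike. With the offset the groups still did not overlap for TFRC or IREB2.

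**Figure D3:**
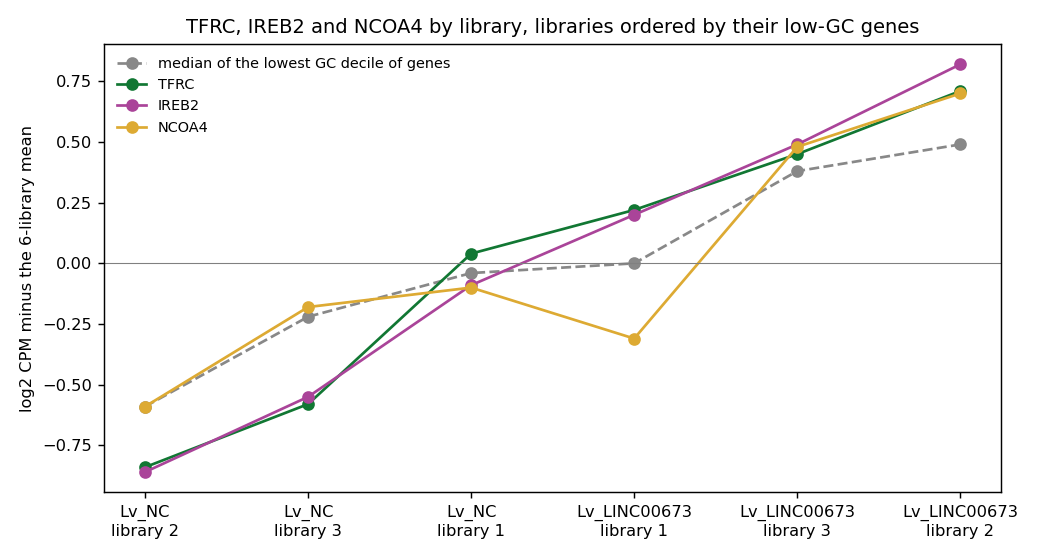
Log2 CPM minus the 6-library mean (y axis) of TFRC, IREB2 and NCOA4 and, dashed, the median of the lowest GC decile of genes, in each library ordered by that median (x axis). TFRC and IREB2 run from about the lowest in Lv_NC library 2 to the highest in Lv_LINC00673 library 2 in the order of the dashed line, and NCOA4 departs from it in Lv_LINC00673 library 1.

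Levels of different genes were compared on the deposited FPKM, which are per length. In Lv_NC, FTL came first at 2398 ± 160 FPKM and FTH1 next at 1177 ± 58.7 (SD, n = 3), above 99.8 and 99.6% of tested rows. STEAP3 followed at 44.2 ± 1.13 FPKM and TFRC at 18.4 ± 6.33. TFRC, FBXL5 (13.2 ± 2.48), NCOA4 (13.1 ± 2.38) and SLC11A2 (11.1 ± 1.26) each overlapped the next in that order. ACO1 was at 6.52 ± 1.10, and SLC40A1 (1.99 ± 0.272) and IREB2 (1.49 ± 0.390) overlapped at the bottom. In Lv_LINC00673 ferritin was again on top, with FTL at 1410 ± 62.5 and FTH1 at 833 ± 38.1 FPKM. TFRC there was at 37.8 ± 7.34 FPKM and overlapped STEAP3 at 42.3 ± 1.71, from which it was apart in Lv_NC. NCOA4 (22.8 ± 8.23) and SLC11A2 (11.6 ± 1.22) came before FBXL5 (9.25 ± 0.525), which overlapped ACO1 (8.34 ± 0.940), and SLC40A1 (3.52 ± 0.539) and IREB2 (3.23 ± 0.787) remained last.

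**Figure D4:**
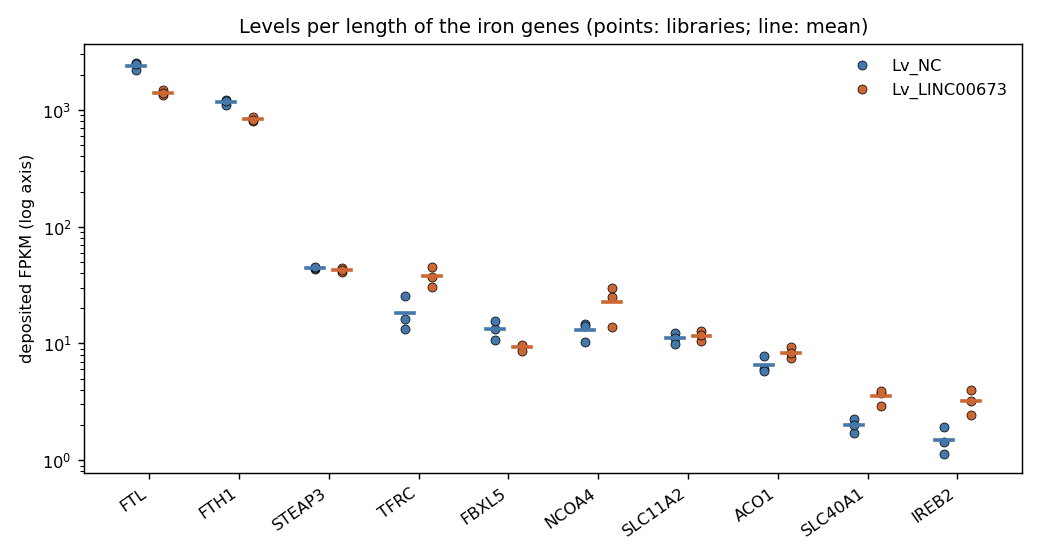
Deposited FPKM (log y axis) of each gene in each library, Lv_NC in blue and Lv_LINC00673 in orange, with a line at the mean, ordered by the Lv_NC mean. FTL and FTH1 lie well above all others in both groups, and TFRC moves from below STEAP3 in Lv_NC into its range in Lv_LINC00673.

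The genes most like FTL and TFRC were found by the root mean square difference of mean-centred log2 CPM over the 6 libraries, among 9508 rows with a mean of at least 10 CPM. For FTL they were GADD45B, NKX2-5 and CCN2, at differences of 0.033, 0.041 and 0.045 and log2 fold changes of -0.95 each. For TFRC they were MFN1, USP28 and THADA, at 0.036, 0.040 and 0.048, with log2 fold changes of 0.91, 0.89 and 0.94. With 2 groups of 3 libraries this likeness is mostly that of the group difference.

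Other iron genes were taken from role lists that hold none of the 10. Of 78 listed, 70 were tested, and TF, STEAP4, SCARA5, FTMT, CP, HAMP, HJV and ALAS2 were too low, with at most 21 counts in a library. Of the 70, 22 were called lower and 6 higher, with a median log2 fold change of -0.18, where all tested rows had 0.05 and 12.5% were lower and 14.3% higher. In the offset values 19 were lower and 8 higher, where 16.4% of all rows were lower and 16.6% higher. The split turned with the scaling: library totals alone, which moved the median of all tested rows by 0.17, gave 8 lower and 11 higher, where 5.58 and 18.5% of all rows were called lower and higher. Deposited FPKM on the log2(FPKM + 1) scale gave 10 lower and 9 higher, beside 5.74 and 15.4% of all rows. The lower count was 10, 12, 11 and 9 without Lv_LINC00673 libraries 2 and 3 and Lv_NC libraries 2 and 3, fits in which 5.18 to 6.68% of all rows were lower.

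Genes of iron-sulphur cluster assembly, which use iron in mitochondria and cytosol, held 11 of the 22 lower calls. Of 24 tested 11 fell and 1 rose, with a median log2 fold change of -0.33, and in the offset values 9 fell and 1 rose, but with library totals alone 2 fell and 2 rose and on log2(FPKM + 1) 4 fell and 2 rose. Those shares stand beside 12.5% of all rows lower without correction, 16.4% with the offset, 5.58% with library totals and 5.74% on FPKM. Without Lv_LINC00673 library 2 or 3 or Lv_NC library 2 or 3, 4, 5, 5 and 4 fell. NFS1, the cysteine desulphurase that supplies the sulphur, fell from 47.8 ± 2.85 to 32.8 ± 3.32 CPM (SD, n = 3; log2 fold change -0.54, edgeR adjusted p = 0.0106). CIAO1, of the cytosolic assembly machinery, fell from 226 ± 4.17 to 156 ± 11.9 CPM (-0.53, adjusted p = 0.00555).

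Of the 15 haem genes tested 5 fell and 0 rose in edgeR, where 1 was higher at an unadjusted p of 0.05. DESeq2 and limma-voom also called 0 higher, but on log2(FPKM + 1) 1 was called higher and 3 lower. With the offset 3 fell, and library totals alone also gave 3 lower. When any 1 library other than Lv_LINC00673 library 1 was left out, 2 or 3 fell. Of all rows 12.5% were lower without correction, 16.4% with the offset, 5.58% with library totals and 5.74% on log2(FPKM + 1). In those leave-one-out fits 5.18 to 10.3% of all rows were lower. HMOX1, haem oxygenase 1, which frees iron from haem, fell from 98.1 ± 8.27 to 39.1 ± 7.41 CPM (log2 fold change -1.32, edgeR adjusted p = 0.00256, offset value -0.93). Its constitutive relative HMOX2 fell from 47.2 ± 4.00 to 29.5 ± 5.08 CPM (-0.68, adjusted p = 0.0112; offset value -0.33, adjusted p = 0.0633; without Lv_NC library 3 adjusted p = 0.0513), and the haem transporter gene SLC48A1 from 46.3 ± 5.98 to 28.8 ± 3.24 CPM (-0.68, adjusted p = 0.00936). The 3 tested genes of mitochondrial import and storage all fell, among them the mitoferrin genes SLC25A37 and SLC25A28 (-0.32 and -0.41). With library totals alone, as on log2(FPKM + 1), 0 of these 3 passed and 1 was lower at an unadjusted p of 0.05, and 0, 1, 0 and 0 passed without Lv_LINC00673 libraries 2 and 3 and Lv_NC libraries 2 and 3, while SLC25A28 was also lost without Lv_LINC00673 library 1 (adjusted p = 0.0632). In the offset values SLC25A28 was at 0.04 (adjusted p = 0.795).

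Partners of the members were also measured. Of 9 partners and chaperones tested 3 were called higher and 1 lower, and with the offset 4 and 2. Of all rows 14.3% were higher and 12.5% lower, and with the offset 16.6 and 16.4%. TAX1BP1, an autophagy receptor that works with NCOA4 in ferritin turnover, rose from 15.1 ± 4.31 to 31.0 ± 5.82 CPM (log2 fold change 1.04, edgeR adjusted p = 0.0126, offset value 1.04). CUL1, the scaffold of the ligase that FBXL5 belongs to, rose from 10.2 ± 1.46 to 17.5 ± 2.23 CPM (0.77, adjusted p = 0.0116), and HERC2, a ubiquitin ligase that acts on NCOA4, from 26.1 ± 3.42 to 41.1 ± 1.77 CPM (0.66, adjusted p = 0.00800). Of these 9 partners and chaperones GLRX3 was the 1 called lower (-0.55, adjusted p = 0.00742), and with the offset SKP1, another ligase subunit, was called lower too (0.27 without it, -0.44 with it, adjusted p = 0.118 and 0.00736). The calls of TAX1BP1 and CUL1 were lost without Lv_NC library 3 (adjusted p = 0.0555 and 0.0523), and that of TAX1BP1 also without Lv_LINC00673 library 2 (0.0505) or library 3. Of the 11 other uptake and reduction genes tested, edgeR called 0, with 2 higher and 0 lower at an unadjusted p of 0.05. DESeq2 and library totals alone each called 1 higher and limma-voom called 0, whereas the offset fit called SLC39A14, a zinc and iron importer, lower (-0.28, adjusted p = 0.0210). Their log2 fold changes ranged from -0.24 for STEAP1B to 0.71 for STEAP2 (edgeR adjusted p = 0.0659, offset value 0.01). STEAP1B had only 0 to 24 counts per library (SE 1.08), so its value is uncertain.

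Of 4 tested genes of export and its hormonal control, HEPHL1, a copper oxidase relative, rose from 0.664 ± 0.346 to 2.02 ± 0.556 CPM (log2 fold change 1.60, SE 0.43, edgeR adjusted p = 0.0267). Its call was lost without Lv_LINC00673 library 2 or 3 or Lv_NC library 3 (adjusted p = 0.0852, 0.0902 and 0.0779). BMP6, a growth factor that drives hepcidin in liver, fell from 69.3 ± 1.96 to 43.5 ± 2.71 CPM (-0.67, adjusted p = 0.00427). Of 4 other messages known to carry an iron-responsive element, CDC42BPA rose from 6.85 ± 0.968 to 17.2 ± 1.63 CPM (1.33, adjusted p = 0.00337). EPAS1 and CDC14A were at -0.19 and 0.72 and did not pass.

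**Figure D5:**
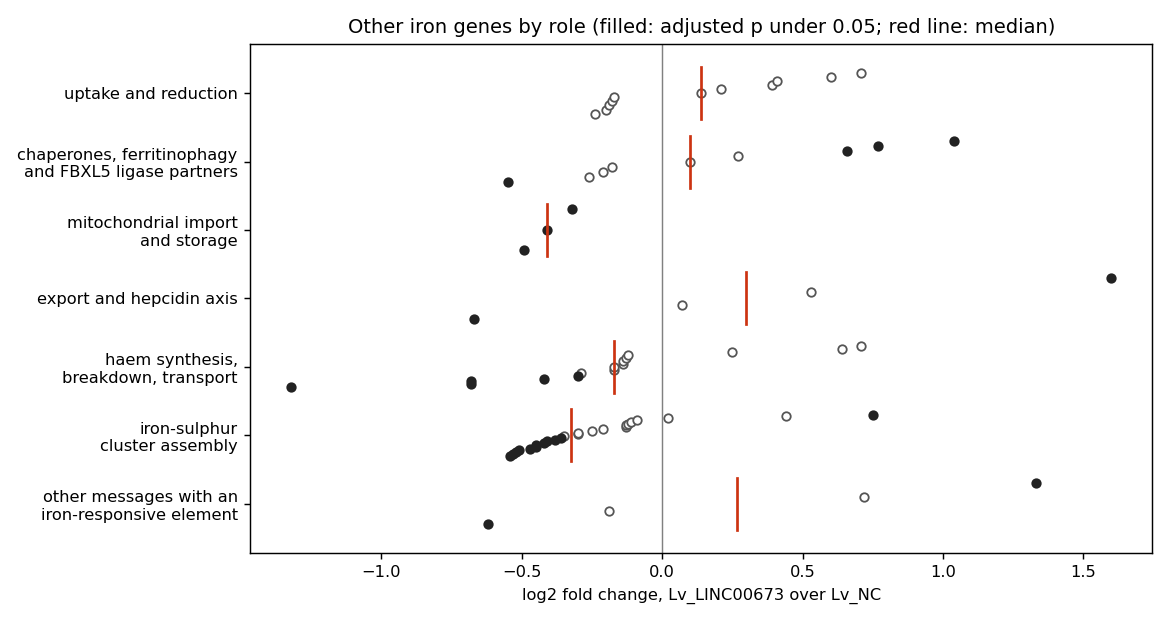
Log2 fold change (x axis) of each other iron gene by role list (y axis), filled where the edgeR adjusted p was under 0.05, with a red line at the list's median. Filled points of the iron-sulphur and haem lists lie left of 0 with 1 exception, and the uptake and reduction list has no filled point.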

How the data were processed

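Libraries of 6 U2OS total RNA samples were made with the TruSeq kit, per the labels. The authors deposited 1 table of raw counts and 1 of FPKM, both by gene. All columns were matched to libraries by name and 0 were left out. Per the submitters' processing notes the build was hg38, and no source used here gives the aligner, counter, annotation, strand setting or FPKM length model.

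The 10 genes, the role lists and the alternatives were chosen with earlier results of these data known. After filterByExpr and TMM scaling the test was that of edgeR 4.0.16 (glmQLFit, glmQLFTest, robust, two-sided; R 4.3.3), adjusted by Benjamini-Hochberg over 21933 rows. Rows without a symbol had no separate treatment. SE is the log2 fold change over the square root of F. Alternatives used DESeq2 1.42.0, limma 3.58.1 (voom, or log2(FPKM + 1) and log2(FPKM + 0.1)), other scalings and filters, a replicate block and leaving out each library. The offset was a spline fit per library on GC content and length of the longest GENCODE 29 transcript. Gene positions are from RefSeq (GRCh38.p14). Named were the 10 genes, up to 3 called genes with the largest change per role list, and the 3 nearest profiles to FTL and TFRC. Others named to complete a count (untested genes, STEAP1B, STEAP2, GLRX3, SKP1, SLC39A14, EPAS1, CDC14A) were chosen after their values were seen. A few genes are not reported here. The test was also run on simulated counts that had the same spread setting for every gene. That setting is simpler than these data, so the run does not bear on the calls here.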

Additional observations from a re-analysis of the deposited data

How the results depend on the processing

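With 3 libraries a group, the count of iron genes called depended on single libraries and on the correction. Of the 10, 3 were called higher, and leaving out 1 library gave 0 to 4. The 3 lower calls became 2 to 4 in leave-one-out fits. In the fits where calls were lost, 12.0 to 15.8% of all rows were called, against 26.8% with all libraries. The other iron genes gave 2 to 10 higher and 9 to 23 lower when 1 library was left out, against 6 and 22. With library totals alone these were 11 and 8, and with log2(FPKM + 1) or log2(FPKM + 0.1) 10 were lower. FTL shares of 67.1 and 62.9% by FPKM were 59.6 and 55.1% by raw counts. ACO1 turned from 0.19 to -0.18 with the offset, and also to -0.18 with the offset and a replicate block. SLC11A2 turned from -0.05 to 0.12 with library totals, to 0.06 on both FPKM scales and to 0.00 without Lv_LINC00673 library 1, in leave-one-out fits from -0.12 to 0.00. The cause was not tested.

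Libraries of the 2 groups share the numbers 1 to 3, and the labels do not say whether these mark pairs. Deviations of same-numbered libraries from their group means correlated over genes at -0.42, -0.36 and 0.04. The highest correlation was 0.45, of Lv_LINC00673 library 1 with Lv_NC library 2. Such values cannot show whether libraries were prepared together. With the replicate block edgeR called 0 iron genes higher (3 at an unadjusted p of 0.05) and 2 lower, where 5.51% of all rows were called. TFRC, IREB2 and SLC40A1 then had log2 fold changes of 0.92, 1.00 and 0.65, and 2 and 4 of the other iron genes were higher and lower. With the replicate block and the offset 1 of the 10 was higher and 3 were lower, where 11.9% of all rows were higher and 11.8% lower.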
